A study of Rattus norvegicus with 12 samples.

Results

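The FOXO factors and the atrophy genes that lie downstream of them were read as a group of 10 genes, found by their symbols among the 32545 genes listed. They comprised 3 forkhead transcription factors (Foxo1, Foxo3, Foxo4), 4 muscle ubiquitin ligases (Fbxo32, Trim63, Trim55, Trim54) and 3 stress and mitophagy effectors (Sesn1, Gadd45a, Bnip3). RNA came from the LV and RV free walls of rats of the Sprague–Dawley strain at postnatal day 7 (P7), with 3 libraries in each of 4 groups. The sham LV and sham RV groups came from sham-operated rats. The VO LV and VO RV groups came from rats in which a fistula between the abdominal aorta and the inferior vena cava had been made on postnatal day 1 (P1), which loads both ventricles with extra volume. No group carried a transgene, and a free wall holds endothelial cells, fibroblasts, macrophages and blood besides cardiomyocytes. The labels do not say whether an LV and an RV with the same number came from 1 rat, nor that the replicates were separate rats, so the p values measure only the spread between these libraries. In sham LV, sham RV and VO RV, Y-linked transcripts were read in some libraries and not in others, so each of these groups held RNA of more than 1 rat; for VO LV the spread may be technical.

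FOXO factors are the transcriptional end of insulin and growth factor signaling. Akt phosphorylates them and so keeps them out of the nucleus, and when that signal weakens they enter it and switch on genes of protein breakdown, autophagy and stress resistance. In striated muscle the best known of these genes encode Atrogin-1 (Fbxo32) and MuRF1 (Trim63), ubiquitin ligases that mark muscle proteins for the proteasome and whose transcripts are used as signs of atrophy in limb muscle and heart. Transcript levels do not show where a FOXO protein lies or whether it is phosphorylated.

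Levels are given as FPKM, fragments scaled by gene length and by library size, as the authors deposited them. The reads on genes numbered 14121713 to 16871371 per library, and the members took between 126 reads (Foxo3, lowest library) and 6239 reads (Trim55, highest library). All 10 members passed the filter of a mean FPKM of at least 0.5, which left 13910 genes to test. Fold changes are log2 differences of FPKM + 0.5 from 1 limma fit of the 4 groups, and a gene was called when its Benjamini-Hochberg adjusted p over the 13910 genes was under 0.05 and its fold change over 1.3. An exact permutation test over samples cannot go below p = 0.10 with 3 libraries against 3.

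Some libraries stood apart from their groups. VO RV replicate 2 and sham RV replicate 1 held the atrial transcript Sln at 388 and 97.7 FPKM, against at most 0.678 in the other 10 libraries. They are called below the libraries with atrial transcripts, after Sln. Over all 8 atrial markers the sums overlapped between the groups. These were 725 to 1173 FPKM in sham LV, 232 to 1090 in sham RV, 910 to 1749 in VO LV and 268 to 4586 in VO RV. The atrial marker Myl7 had 463 and 138 FPKM in the 2 libraries and 21.4 to 75.5 FPKM in the other 10. Transcripts of the Y-linked genes Eif2s3y, Kdm5d and Uty were read in 2 of 3 sham LV, 2 of 3 sham RV, 0 of 3 VO LV and 1 of 3 VO RV libraries, so that VO and the presence of a Y chromosome are partly mixed. Of 10 cardiomyocyte markers, Tcap was listed at 0 in every library and the other 9 were read, with a sum of 18641 to 29371 FPKM. In whole tissue, fewer cells of a type and less RNA per cell cannot be told apart.

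The 3 ligases of the MuRF family were the most abundant members. Trim55 (MuRF2) had a mean of 118 FPKM over the 12 libraries, above 95.8% of the tested genes, Trim63 (MuRF1) had 83.0 FPKM and Trim54 (MuRF3) 66.1 FPKM. Bnip3, which encodes a mitochondrial outer membrane receptor for mitophagy, followed with 46.2 FPKM. Gadd45a, which encodes a growth arrest and DNA damage protein, had 28.0 FPKM. Foxo4 (17.2 FPKM) and Sesn1 (16.3 FPKM) were intermediate. Fbxo32, Foxo1 and Foxo3 were the lowest, with 9.49, 7.39 and 5.55 FPKM, near the middle of the tested genes. Fbxo32 had the widest range of the members, 4.88-fold between its lowest and highest library, and Foxo3 the next, 3.07-fold, whereas Trim63 and Trim54 ranged 1.48-fold and 1.44-fold.

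**Figure D1:**
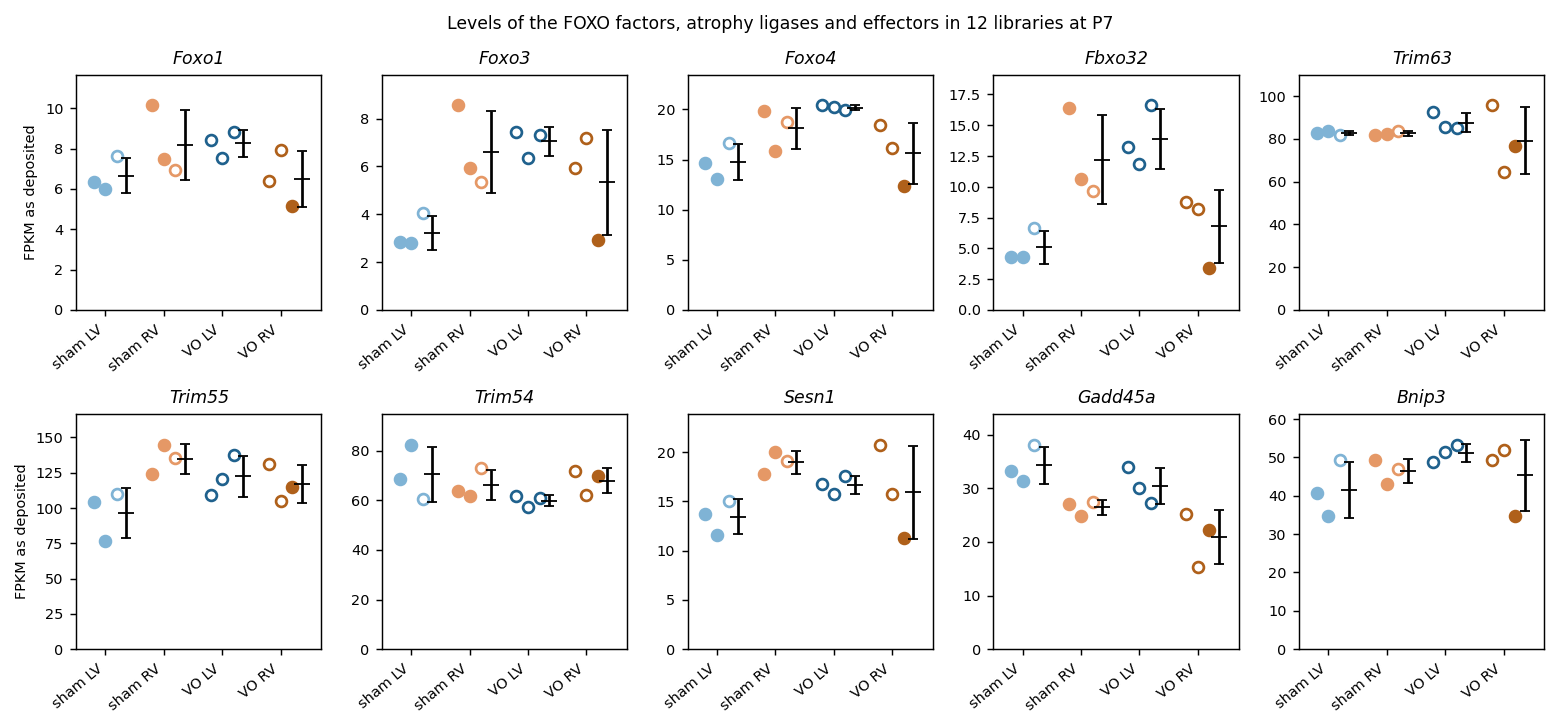
FPKM as deposited (vertical axes, each from 0) of the 10 members in the 4 groups, 1 point per library, with the group mean ± SD (n = 3) in black. Filled points are libraries with Y-linked transcripts and open points those without; Fbxo32 is low in sham LV (4.28 to 6.63 FPKM) and high in VO LV (11.8 to 16.6 FPKM), whereas Trim63 in sham LV and sham RV spans 81.8 to 83.9 FPKM.

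Fbxo32 was the only member called in any of the 5 comparisons, and it was called in the difference between the responses of the 2 ventricles to VO. Fbxo32 lies on the minus strand at chr7:98063735-98098268 in the coordinates of the deposited table, whose genome build is not given in the sources used here. The sham LV libraries had 4.28, 4.31 and 6.63 FPKM and the sham RV libraries 16.4, 10.6 and 9.63 FPKM. The VO LV libraries had 13.2, 11.8 and 16.6 FPKM and the VO RV libraries 8.74, 8.21 and 3.41 FPKM. Thus every sham LV value lay below every sham RV value, every VO LV value above every sham LV value, and every VO RV value below every sham RV value. The order of the group means was VO LV (13.9 ± 2.5 FPKM), sham RV (12.2 ± 3.6), VO RV (6.79 ± 2.9) and sham LV (5.07 ± 1.4; all SD, n = 3). VO LV and sham RV overlapped, as did VO RV and sham LV.

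The response of Fbxo32 to VO was 2.25 log2 units higher in the LV than in the RV (SE 0.45, 95% interval 1.27 to 3.23, limma adjusted p = 0.0312). Across all tested genes, 4.19% were called in this difference of responses, and 1 of the 10 members was. The LV part was a log2 fold change of 1.38 (2.61-fold, SE 0.32, limma adjusted p = 0.0582; exact permutation p = 0.10), and the RV part was −0.86 (SE 0.32, limma adjusted p = 0.557; exact permutation p = 0.10), so neither passed alone in this fit. The LV part was called in the fits of only the groups compared (1.39, limma adjusted p = 0.0463) and with the atrial markers as a covariate (1.35, limma adjusted p = 0.0448), which called 120 and 324 of all 13910 genes there, against 13 in the reported fit. In the sham hearts Fbxo32 was 2.27-fold lower in the LV (log2 −1.18, SE 0.32, limma adjusted p = 0.0581), which also missed the threshold. Under VO the LV level was 2.10-fold that of the RV (limma adjusted p = 0.281). Fbxo32 was the single member whose libraries did not overlap with VO above sham in the LV and VO below sham in the RV, a pattern shown by 3.37% of all tested genes.

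The call for Fbxo32 depended on which libraries were in the fit. With 1 library left out in turn the difference ranged from 1.85, in the fit that left out VO RV replicate 3, to 2.47, in the fit that left out VO RV replicate 1, and it was called in 5 of 12 such fits. It was not called without sham LV replicate 1 (limma adjusted p = 0.0672), sham LV replicate 2 (0.0693), sham RV replicate 1 (0.0820), sham RV replicate 2 (0.0711), VO LV replicate 1 (0.0515), VO LV replicate 2 (0.0578) or VO LV replicate 3 (0.0914). Calls over all 13910 genes fell in the same fits, from 583 in the reported fit. They numbered 239 without VO LV replicate 1, 4 without sham RV replicate 2 and 0 in the rest, so this loss is not particular to Fbxo32. Without VO RV replicate 2 and sham RV replicate 1, the libraries with atrial transcripts, the difference was 2.21 and the limma adjusted p was 0.0687. That fit called 2 of all genes. With the replicate number as a block, over all groups or within each treatment, the Fbxo32 difference was not called either. Those fits called 1 and 0 of all genes.

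Fbxo32 also varied with the Y-linked transcripts inside groups. The sham LV library without them had 6.63 FPKM against 4.28 and 4.31 FPKM in those with them, and the VO RV library with them had 3.41 FPKM against 8.74 and 8.21 FPKM in those without. In sham RV the order was opposite, at 9.63 FPKM without and 16.4 and 10.6 FPKM with them. With the Y-linked level as a covariate the difference of responses was 2.11 (limma adjusted p = 0.0483), and the LV response was 1.09 (limma adjusted p = 0.290). In the 7 libraries without Y-linked transcripts the difference was 1.17 (SE 0.29, limma adjusted p = 0.975), with 1 library in each sham group, whose spread is then taken from the others. Since all 3 VO LV libraries lacked these transcripts and 2 of 3 sham LV libraries held them, the part of each in the LV values cannot be told apart.

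**Figure D2:**
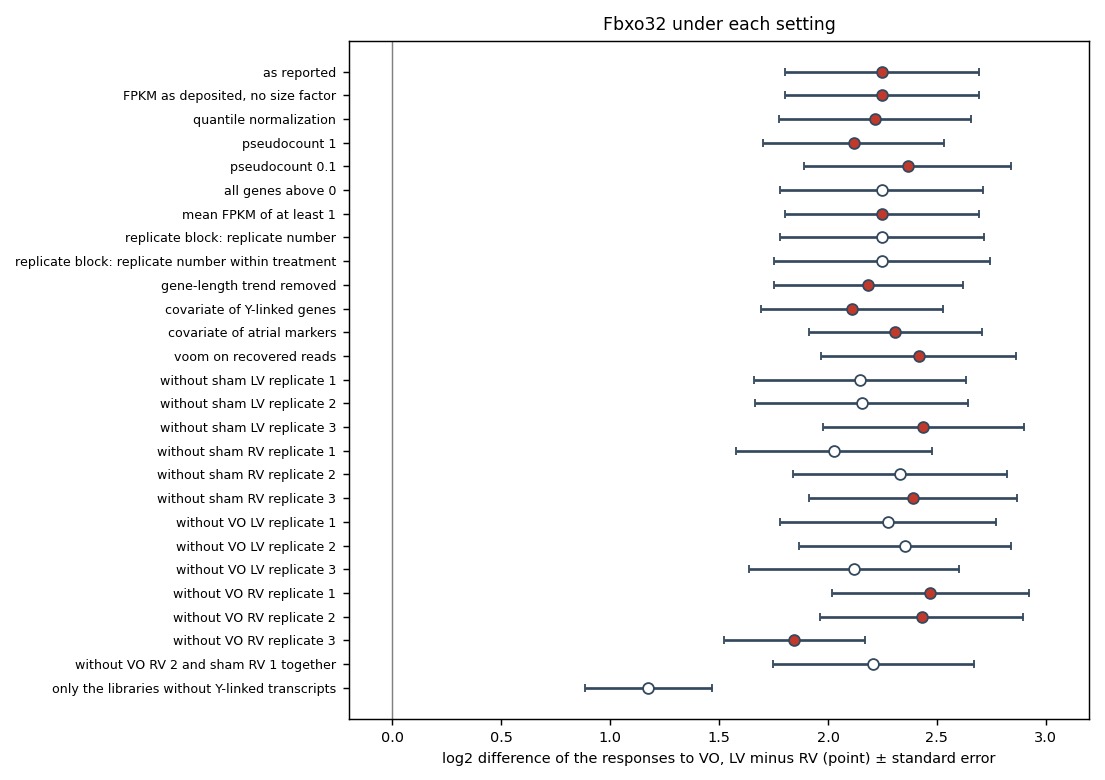
Difference of the Fbxo32 responses to VO, LV minus RV, on a log2 axis (point) ± its standard error, under each setting of the processing and with each library left out, from the reported fit at the top. Red points have an adjusted p under 0.05; all points lie above 0, between 1.17 in the libraries without Y-linked transcripts and 2.47 without VO RV replicate 1.

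Foxo3, the FOXO factor most studied in muscle atrophy, varied across the libraries much as Fbxo32 did and was not called in the reported fit. It lies on the plus strand at chr20:46428124-46519144 of the deposited table. Its levels were 2.85, 2.78 and 4.04 FPKM in sham LV and 8.56, 5.92 and 5.33 FPKM in sham RV. Under VO they were 7.45, 6.36 and 7.32 FPKM in the LV and 5.92, 7.18 and 2.92 FPKM in the RV. All 3 sham LV values lay below all values of sham RV and of VO LV, and VO RV overlapped the other 3 groups. The log2 fold change was −0.92 for sham LV against sham RV (SE 0.27, limma adjusted p = 0.0725) and 1.03 for VO in the LV (SE 0.27, limma adjusted p = 0.0727). In the RV it was −0.33 (limma adjusted p = 0.735), and it was 0.02 without VO RV replicate 3. The difference of the responses was 1.37 (SE 0.38, 95% interval 0.53 to 2.21, limma adjusted p = 0.0644). It was called with voom on the recovered reads (1.53, limma adjusted p = 0.0469) and without VO RV replicate 2 (1.61, limma adjusted p = 0.0376), which called 802 and 924 of all genes, against 583. The LV response of Foxo3 was called with only the groups compared (1.04, limma adjusted p = 0.0463) and with the atrial covariate (1.00, limma adjusted p = 0.0448).

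Foxo4 and Foxo1 showed smaller differences. Foxo4 (chrX:71155601-71162158, plus strand) had 14.6, 13.0 and 16.7 FPKM in sham LV and 20.4, 20.2 and 19.9 FPKM in VO LV. These groups did not overlap, and the VO LV libraries were the closest to each other of any group for this gene (SD 0.26 FPKM, n = 3). In the RV, Foxo4 had 19.8, 15.9 and 18.7 FPKM after sham surgery and 18.4, 16.1 and 12.4 FPKM under VO, with overlap. Its log2 fold change was 0.45 in the LV (limma adjusted p = 0.105) and −0.22 in the RV (limma adjusted p = 0.675), and the difference of the responses was 0.66 (95% interval 0.22 to 1.10, limma adjusted p = 0.0781). Without VO RV replicate 1 that difference was 0.79 and was called (limma adjusted p = 0.0379), in a fit that called 1004 of all genes, against 583. Foxo1 (chr2:141451234-141527016, plus strand), which also controls liver glucose output, overlapped between the groups in every comparison. Its levels were 6.35, 5.97 and 7.64 FPKM in sham LV and 8.41, 7.51 and 8.83 FPKM in VO LV. In the RV they were 10.1, 7.46 and 6.94 FPKM after sham surgery and 6.37, 7.93 and 5.16 FPKM under VO. For Foxo1 the difference of the responses was 0.61 (95% interval 0.08 to 1.14, limma adjusted p = 0.148).

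The 2 classical atrophy ligases differed in how much they varied. Trim63 encodes MuRF1, which sits at the sarcomere M-line and ubiquitinates thick filament proteins. It had 82.7, 83.8 and 81.8 FPKM in sham LV and 81.9, 82.2 and 83.9 FPKM in sham RV. Those 6 values lay between 81.8 and 83.9 FPKM, and the log2 difference between the ventricles was 0.00 (95% interval −0.25 to 0.26). Under VO Trim63 had 92.6, 85.4 and 85.0 FPKM in the LV, all above the sham LV values, and 95.8, 64.7 and 76.9 FPKM in the RV, on both sides of the sham RV values. The log2 fold changes for VO were 0.08 (95% interval −0.17 to 0.34) in the LV and −0.08 (95% interval −0.33 to 0.18) in the RV. The difference of the responses was 0.16 for Trim63 (95% interval −0.20 to 0.52, limma adjusted p = 0.555), and its interval did not reach the lower end of that of Fbxo32, 1.27. A direct test of one gene against the other was not made.

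FOXO proteins bind the letters GTAAACA, and the related CAAAACA, on either strand, and Trim63 was the only one of 7 members with a RefSeq promoter entry that held either of them in the 250 bases before the gene start. GTAAACA or its reverse complement TGTTTAC was found in 3.21% of the 33469 promoter windows of this length, and CAAAACA or TGTTTTG in 5.46%. The 7 members were Foxo1, Foxo4, Trim63, Trim54, Sesn1, Gadd45a and Bnip3. The promoter set used here held no entry for Foxo3, Fbxo32 or Trim55, so these were not searched. The Trim63 window (RefSeq, GRCr8, chr5:151816986-151817235, plus strand) is shown because Trim63 is a textbook FOXO target that stayed within a narrow range here. Capitals mark TGTTTAC, which starts 205 bases before the gene start.
Trim63: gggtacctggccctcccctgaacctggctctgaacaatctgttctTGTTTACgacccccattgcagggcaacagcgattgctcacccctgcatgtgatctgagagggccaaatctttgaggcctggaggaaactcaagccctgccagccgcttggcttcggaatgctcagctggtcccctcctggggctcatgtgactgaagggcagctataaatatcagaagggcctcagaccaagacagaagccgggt
A match of letters is a description of the window and does not show binding.

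Trim55 and Trim54 encode the other 2 MuRF proteins, which bind microtubules and sarcomeres in developing muscle. Trim55 (chr2:104416972-104459107, plus strand) had 104, 76.4 and 110 FPKM in sham LV, against 124, 145 and 135 FPKM in sham RV, without overlap (log2 −0.49, 95% interval −0.81 to −0.18, limma adjusted p = 0.0719). Under VO it had 109, 120 and 138 FPKM in the LV and 131, 105 and 115 FPKM in the RV, and each overlapped its sham group. Its responses were 0.35 in the LV (limma adjusted p = 0.176) and −0.20 in the RV (limma adjusted p = 0.699). Trim54 (chr6:26603369-26624092, minus strand) was the only member with a negative difference of responses, −0.26 (95% interval −0.62 to 0.10, limma adjusted p = 0.331). It had 68.7, 82.5 and 60.4 FPKM in sham LV and 61.8, 57.3 and 60.8 FPKM in VO LV. Its RV values were 63.9, 61.6 and 73.0 FPKM after sham surgery and 71.7, 62.1 and 69.9 FPKM under VO. The VO LV values of Trim54 all lay below its VO RV values (log2 −0.18, limma adjusted p = 0.585; exact permutation p = 0.10), and the other groups overlapped.

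Among the effectors, Sesn1 and Bnip3 had their lowest group mean in sham LV, as Foxo3, Foxo4, Fbxo32 and Trim55 did. Sesn1 encodes sestrin 1, an inhibitor of mTORC1 signaling that FOXO factors and p53 both induce, and lies close to Foxo3 at chr20:46667121-46758305. Sesn1 had 13.7, 11.6 and 15.0 FPKM in sham LV and 17.8, 20.0 and 19.1 FPKM in sham RV, without overlap (log2 −0.49, limma adjusted p = 0.118). VO LV had 16.8, 15.7 and 17.5 FPKM, all above sham LV (log2 0.31, limma adjusted p = 0.311), and VO RV had 20.8, 15.7 and 11.3 FPKM, spread around sham RV (log2 −0.28, limma adjusted p = 0.661). The difference of the responses was 0.59 (95% interval 0.04 to 1.14, limma adjusted p = 0.170). Without VO RV replicate 1 it was 0.80 and was called (limma adjusted p = 0.0422), in a fit that called 1004 of all genes.

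Gadd45a differed from the other effectors in its order of groups. It lies on the minus strand at chr4:97782512-97784842, and its sham LV libraries (33.2, 31.4 and 38.2 FPKM) all lay above its sham RV libraries (27.0, 24.9 and 27.5 FPKM; log2 0.36, limma adjusted p = 0.182). Under VO it had 33.9, 30.0 and 27.2 FPKM in the LV and 25.2, 15.3 and 22.3 FPKM in the RV, again without overlap (log2 0.55, 95% interval 0.20 to 0.90, limma adjusted p = 0.280). Its lowest value belonged to VO RV replicate 2, the library with most atrial transcripts, and without it the log2 fold change for VO in the RV was −0.16 in place of −0.36. Bnip3 (chr1:211248098-211265282, minus strand) had 40.8, 34.8 and 49.3 FPKM in sham LV and 48.7, 51.3 and 53.4 FPKM in VO LV. In the RV it had 49.4, 43.1 and 46.9 FPKM after sham surgery and 49.4, 52.0 and 34.8 FPKM under VO. The groups of Bnip3 overlapped in every comparison, and its difference of responses was 0.36 (95% interval −0.12 to 0.84, limma adjusted p = 0.320).

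**Figure D3:**
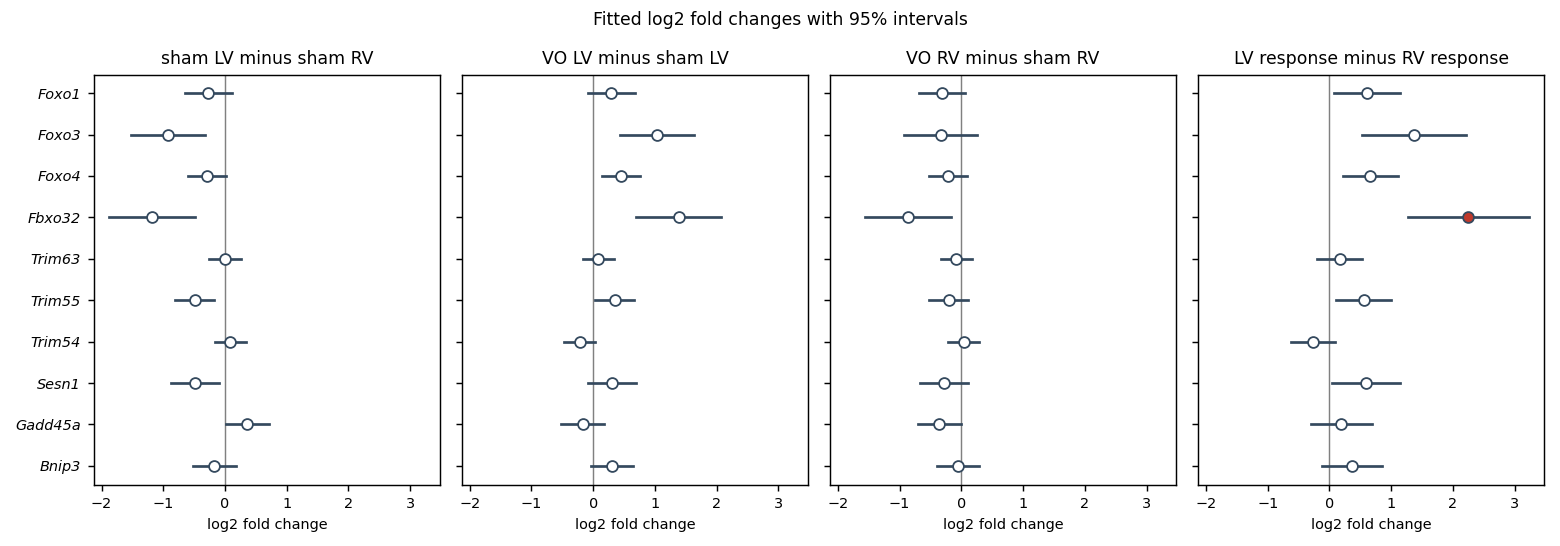
Fitted log2 fold changes (points) with 95% intervals of the 10 members for sham LV minus sham RV, VO LV minus sham LV, VO RV minus sham RV, and the LV response minus the RV response. The red point, Fbxo32 at 2.25, is the only called value; the points of Trim63 lie between −0.08 and 0.16.

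Few members were called in any comparison. In sham hearts 0 of 10 were called by limma, where 3.86% of all tested genes were, and at an unadjusted p under 0.05 there were 4 lower in the LV and 1 higher (25.7% of all genes in either direction). Voom on the recovered reads called 1 member there, Fbxo32, and 683 of all 13910 genes, against 537 by the reported fit. In the LV 0 of 10 were called under VO (0.0935% of all genes), 4 were higher at an unadjusted p under 0.05 (23.4% of all genes in either direction), and voom called 1, Fbxo32, and 341 of all 13910 genes, against 13 by the reported fit. In the RV 0 of 10 were called by limma and by voom (0.0% of all genes), and 2, Fbxo32 and Gadd45a, were lower at an unadjusted p under 0.05 (8.4% of all genes in either direction). For VO LV against VO RV, 0 of 10 were called by limma and by voom (0.00719% of all genes), and 3 were higher in the LV at an unadjusted p under 0.05 (11.4% of all genes in either direction). In the difference of the responses 6 of 10 members had an unadjusted p under 0.05, all positive (25.5% of all genes in either direction).

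Without overlap, 5 of 10 members were higher under VO in the LV, against 16.7% of all tested genes, and 0 were lower, against 15.7%. The 5 were Foxo3, Foxo4, Fbxo32, Trim63 and Sesn1. In the RV 1 of 10, Fbxo32, was lower under VO without overlap, against 6.87%, and 0 were higher, against 5.64%. In sham hearts 4 of 10 were lower in the LV without overlap (16.6% of all genes) and 1 was higher (15.6%). Between the ventricles under VO, Foxo4, Fbxo32 and Gadd45a were higher in the LV without overlap (3 of 10; 8.45% of all genes) and Trim54 was lower (1 of 10; 7.69%). The comparisons of the LV with VO and of the sham ventricles share the sham LV libraries, so these counts do not stand alone. The median log2 fold change of the members was −0.28 for sham LV against sham RV (0.01 over all tested genes), 0.31 for VO in the LV (−0.02), −0.25 for VO in the RV (0.00) and 0.57 for the difference of the responses (−0.04). The fitted values were above 0 in the LV and below 0 in the RV for 8 of 10 members, against 33.0% of all tested genes. The exceptions were Trim54, with −0.22 and 0.04, and Gadd45a, with −0.17 and −0.36. Of the 8, only Fbxo32 had an unadjusted limma p under 0.05 in the RV. Several RV values were near 0, and some turned with 1 library left out. Without VO RV replicate 3, Foxo3 was 0.016 and Bnip3 0.13, and without VO RV replicate 2, Trim63 was 0.053.

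Markers of cardiomyocytes and of other cells moved between the same groups. The cardiomyocyte markers summed to 26213 to 27872 FPKM in sham LV, above sham RV (22412 to 26196 FPKM). They summed to 26925 to 29371 FPKM in VO LV and 18641 to 27154 FPKM in VO RV, each overlapping its sham group. The 7 of 8 endothelial markers in the table summed to 498 to 549 FPKM in sham LV, above sham RV (348 to 383 FPKM) and VO LV (393 to 437 FPKM). Red blood cell markers (5 of 6) summed to 9631 to 13192 FPKM in sham LV and 4899 to 8174 FPKM in sham RV, and macrophage markers (8 of 8) to 112 to 126 FPKM and 83.5 to 95.9 FPKM. In VO LV these 2 lists summed to 6468 to 9896 FPKM and 86.4 to 114 FPKM. Fibroblast markers (8 of 8) summed to 2594 to 2789 FPKM in sham LV and 2063 to 2543 FPKM in VO LV. Skeletal muscle markers (8 of 10), which include genes that heart muscle also expresses, summed to 2390 to 3656 FPKM in sham LV and 3694 to 4371 FPKM in VO LV, with Myh1, Myh3, Myh8, Myog and Tnni2 under 0.5 FPKM in every library. In the RV, fibroblast markers summed to 2770 to 3640 FPKM after sham surgery and 2533 to 4935 FPKM under VO, and skeletal muscle markers to 2431 to 3296 FPKM and 2185 to 3043 FPKM. VO RV held endothelial markers at 360 to 455 FPKM, macrophage markers at 88.8 to 133 FPKM and red blood cell markers at 4781 to 10770 FPKM, each overlapping sham RV. Their part in the members' values was not tested.

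Longer genes tended to have higher responses in the LV and lower ones in the RV across all tested genes (Spearman rho of length and log2 fold change 0.19 and −0.18, a description across genes). The members are 1241 to 3450 bases long, and the 7273 tested genes within that range had median log2 fold changes of −0.01 in the LV and 0.01 in the RV. That range pools members that split by length. The 6 with an unadjusted limma p under 0.05 in the difference of the responses were 2560 (Foxo1) to 3450 bases (Sesn1) long. The rest were 1241 (Gadd45a) to 1896 bases (Trim63) long. Whether length bears on this split was not tested. With each library's length trend removed, the Fbxo32 difference was 2.19 (limma adjusted p = 0.0359).

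**Figure D4:**
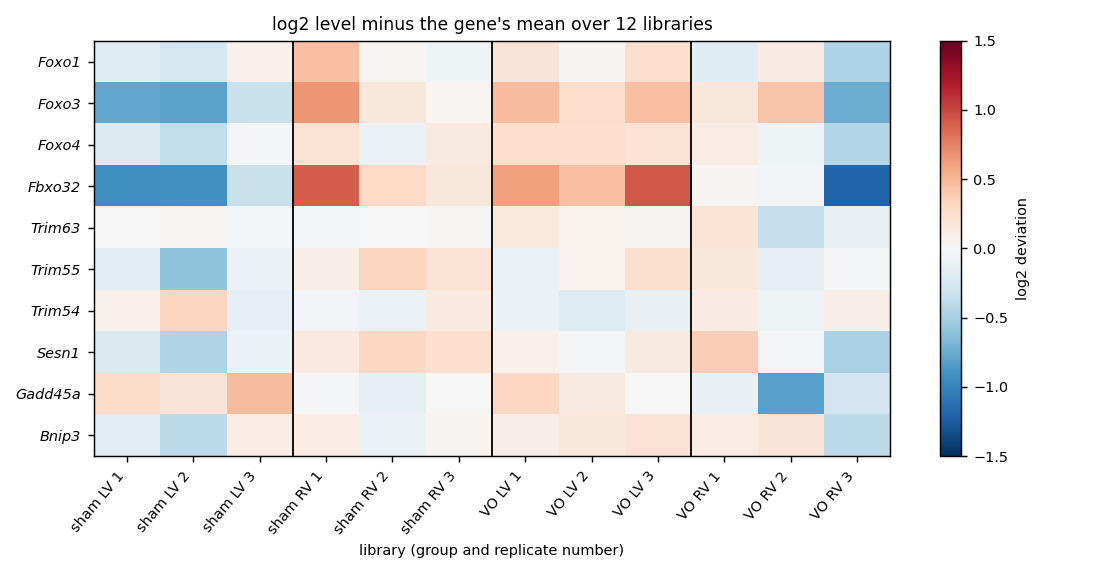
Log2 level of each member (rows) minus its mean over the 12 libraries (columns, ordered by group, vertical lines between groups), red above and blue below the mean. Fbxo32 and Foxo3 are below their means in the 3 sham LV libraries and in VO RV replicate 3, where Fbxo32 had 3.41 FPKM.

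VO RV replicate 3 was low in several members. Its values of Foxo1 (5.16 FPKM), Foxo4 (12.4 FPKM), Fbxo32 (3.41 FPKM) and Sesn1 (11.3 FPKM) were the lowest of the 12 libraries. It was also the VO RV library with Y-linked transcripts, and the part of these in its values was not tested. Without it, the response of Fbxo32 in the RV was −0.46 in place of −0.86. In the same fit, which pools the spread of all groups, Fbxo32 and Foxo3 were called for VO in the LV (1.38 and 1.03, limma adjusted p = 0.0155 and 0.0209), and Fbxo32, Foxo3 and Sesn1 for sham LV against sham RV (limma adjusted p = 0.0195, 0.0233 and 0.0448). That fit also called more of all 13910 genes, 554 in place of 13 for VO in the LV and 872 in place of 537 between the sham ventricles.

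Across the 12 libraries the log2 levels of Foxo3 and Fbxo32 had a Pearson r of 0.941 (Spearman rho 0.860), and those of Foxo4 and Fbxo32 and of Foxo1 and Fbxo32 had 0.915 and 0.878. Fbxo32 and Trim63 had an r of 0.265. These are descriptions over 12 libraries that share the 4 groups and the differences between libraries given above. By the same measure, the tested gene with the pattern most like Fbxo32 was Fbxl17, another F-box gene (r = 0.981), and the cyclin gene Ccnd2 was close to it (0.975). Foxo3 was most like the circadian repressor Bhlhe41 (0.986), Foxo4 like the autophagy gene Wipi2 (0.963), and Foxo1 like Itpripl2 (0.973). Trim55 was most like the cardiac membrane gene Popdc2 (0.973), Sesn1 like Phospho1 (0.964), Gadd45a like Sema7a (0.952), Trim54 like Hnrnpl (0.925) and Trim63 like the mitochondrial import gene Samm50 (0.914). For Bnip3 the nearest genes included Kdm6a (0.949) and Kdm5c (0.935), X-linked histone demethylases.

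Of 37 regulators of FOXO factors, from insulin receptor to Akt, AMPK, sirtuins and 14-3-3 proteins, 5 were called in the difference of the responses (4.19% of all tested genes), all with the higher response in the LV, and 5 in sham hearts (3.86% of all), 4 of them lower in the LV. Insr, the insulin receptor gene, had 5.65 ± 0.69 FPKM in sham LV and 10.6 ± 1.9 in VO LV, and 10.8 ± 1.4 in sham RV and 7.98 ± 0.98 in VO RV (SD, n = 3). In sham hearts it was lower in the LV (log2 −0.88, limma adjusted p = 0.0319), and its response to VO was 1.26 higher in the LV (limma adjusted p = 0.0249). Prkaa2, the catalytic AMPK subunit typical of muscle, was also lower in the sham LV (log2 −2.27, limma adjusted p = 0.0332), and its response was 3.58 higher in the LV (SE 0.62, limma adjusted p = 0.0249). Akt2, the insulin-responsive Akt kinase, had a response 1.04 higher in the LV (limma adjusted p = 0.0319). Of the receptor substrates, Irs1 was lower in sham LV (−0.85, limma adjusted p = 0.0459). Irs2, itself a FOXO target in liver, rose with VO in the LV from 5.41 ± 1.7 to 20.1 ± 5.6 FPKM (SD, n = 3; log2 1.81, limma adjusted p = 0.0497), and it was the only gene of the lists called there. Without VO LV replicate 3 its log2 fold change was 1.60 and its limma adjusted p 0.248, in a fit that called 0 of all genes there.

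Among 26 tested rows for 25 further genes, FOXO targets and 1 FOXO factor (Foxo6), 4 were called in the difference of the responses and 3 in sham hearts, beside the same 4.19% and 3.86% of all tested genes. Tsc22d3, which encodes the glucocorticoid-induced leucine zipper, was lower in sham LV (7.21 ± 3.1 FPKM) than in sham RV (18.9 ± 2.0 FPKM; SD, n = 3), with a response 1.96 higher in the LV (limma adjusted p = 0.0329). Ppargc1a, the PGC-1α gene of mitochondrial biogenesis, was lower in sham LV as well (−0.78, limma adjusted p = 0.0496), with a response 1.31 higher in the LV (limma adjusted p = 0.0329). Foxo6, the remaining FOXO factor, was lower in sham LV (2.38 ± 0.31 FPKM) than in sham RV (4.82 ± 0.40 FPKM; log2 −0.89, limma adjusted p = 0.0361). Pck2, a mitochondrial enzyme of phosphoenolpyruvate synthesis, went the other way, with a response 0.82 lower in the LV (log2 −0.82, limma adjusted p = 0.0445).

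Of 28 other muscle ubiquitin ligases and partners tested, 4 were called in the difference of the responses (4.19% of all tested genes), all with the higher response in the LV, and 3 in sham hearts (3.86% of all), all lower in the LV. Fbxo40, a muscle F-box protein that targets IRS1 for breakdown, had 11.4 ± 3.9 FPKM in sham LV and 26.6 ± 2.8 in VO LV, and 23.5 ± 1.9 in sham RV and 16.6 ± 5.5 in VO RV (SD, n = 3). Its order of groups was that of Fbxo32, and the difference of its responses was 1.78 (SE 0.37, limma adjusted p = 0.0319). The F-box gene Fbxo21 had a difference of 1.22 (limma adjusted p = 0.0369) and the mitochondrial ligase gene Mul1 one of 0.68 (limma adjusted p = 0.0449). Klhl41, whose product is a sarcomeric adaptor for a cullin ligase, had one of 0.78 (limma adjusted p = 0.0481). Klhl41 (−0.61, limma adjusted p = 0.0389) and Wwp1 (−0.52, limma adjusted p = 0.0498) were lower in sham LV. The median response difference of this list was 0.38, against −0.04 over all tested genes. It was the largest of the lists. The medians were 0.14 for the FOXO regulators, 0.22 for the FOXO targets and 0.05 for the autophagy and mitophagy genes. They were 0.17 for the p53 targets and −0.25 for the targets of hypoxia-inducible factor.

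Of 28 autophagy and mitophagy genes, 2 were called in the difference of the responses (4.19% of all tested genes) and 0 in the other comparisons by limma and by voom, with 2 to 5 genes at an unadjusted p under 0.05 in each of those. Of all tested genes, such a p was held by 25.7% in sham hearts and 23.4% for VO in the LV. It was held by 8.4% for VO in the RV and 11.4% for VO LV against VO RV. Atg13, a subunit of the ULK1 complex, had a response 0.91 higher in the LV (limma adjusted p = 0.0423). Bnip3l, the paralog of Bnip3 known as NIX, had the opposite sign (log2 −0.51, limma adjusted p = 0.0422), whereas Bnip3 itself was at 0.36 and not called. Bnip3 is also a target of hypoxia-inducible factor (HIF), and Gadd45a and Sesn1 are targets of p53. Of 14 other HIF targets and 13 other p53 targets, 0 were called in any comparison by limma, and voom called 1 HIF target in the difference of the responses, beside 802 of all 13910 genes. At an unadjusted p under 0.05, the difference of the responses held 7 of the HIF targets (2 higher and 5 lower) and 5 of the p53 targets (1 higher and 4 lower), beside 25.5% of all tested genes. In all, 15 of 146 tested rows of these lists were called in the difference of the responses (13 higher in the LV and 2 lower), 11 in sham hearts (1 higher in the LV and 10 lower), and 1 for VO in the LV. With the Y-linked level as a covariate 4 were called in the difference, and without VO RV replicate 2 and sham RV replicate 1 there were 0, where 176 and 2 of all 13910 genes were called, against 583 in the reported fit. For VO in the RV, 0 were called by limma and by voom, and 21 had an unadjusted p under 0.05 (4 higher and 17 lower), beside 8.4% of all tested genes. For VO LV against VO RV, 0 were called by both, and 23 had an unadjusted p under 0.05 (18 higher and 5 lower), beside 11.4% of all.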

How the data were processed

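RNA-seq libraries of LV and RV free walls (4 groups of 3) were analysed from the table of FPKM that the authors deposited. The authors cleaned the reads, aligned them with HISAT2 2.0.5 and counted them per gene with featureCounts 1.5.0-p3, as their methods and the submitters' processing notes state. The genome build, annotation release and strand setting are not given in the sources used here. Columns of values without a sample numbered 0.

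After multiplication by gene length, 100% of the values under 200 reads were whole multiples of 1 step per library (tolerance 0.02), which gave back 14121713 to 16871371 reads per library. No listed gene overlaps a member on the opposite strand. Foxo4 overlaps a pseudogene listed at 0, and Sesn1 a gene with a mean of 0.0595 FPKM.

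FPKM were divided by median-ratio size factors (1.00 to 1.01), 0.5 was added, and the log2 values of the 13910 genes that averaged 0.5 FPKM or more were fitted with limma 3.58.1 with an intensity trend in R 4.3.3, in 1 model of the 4 groups. This scale understates changes of low genes. A gene was called at the study's thresholds, a fold change over 1.3 with a p, adjusted after Benjamini-Hochberg, under 0.05. The procedure was tested on simulated data. Exact two-sided permutation tests used the FPKM as deposited.

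The members and gene lists were chosen with earlier results of these data known. Named were all members, up to 3 called genes with the smallest adjusted p from each of 6 lists in each comparison, and the genes with the highest Pearson r with each member among those with a mean FPKM of at least 1. Of 152 list symbols 145 were tested. Promoter windows came from RefSeq (GRCr8). The count test of the study was not run; voom on the recovered reads was the alternative.

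Alternatives were other scalings, pseudocounts and filters, the compared groups alone, the replicate number as a block, removal of the gene-length trend, covariates for Y-linked and atrial transcripts, and each library left out. The fit of only the libraries without Y-linked transcripts was chosen after seeing the data.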

Additional observations from a re-analysis of the deposited data

Results flagged for a closer look

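The responses of the LV and the RV to VO differed by limma's test of the difference itself, with an adjusted p under 0.05, for 1 member and for 12 of the genes named from the pathway lists. All differences are log2 values, LV minus RV. For Fbxo32 the difference was 2.25. Of the regulators of FOXO factors it was 3.58 for Prkaa2, 1.26 for Insr and 1.04 for Akt2. Among FOXO targets it was 1.96 for Tsc22d3, 1.31 for Ppargc1a and −0.82 for Pck2. Of the autophagy genes, Atg13 had 0.91 and Bnip3l −0.51. Among the ubiquitin ligases it was 1.78 for Fbxo40, 1.22 for Fbxo21, 0.78 for Klhl41 and 0.68 for Mul1. Background calls in this test were 4.19% of all tested genes. With each library left out in turn these genes were called in 2 (Mul1, Pck2) to 6 (Insr, Prkaa2) of 12 fits. All genes called ranged from 0 to 1004 in these fits.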

How the results depend on the processing

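Every difference of responses for Fbxo32 stayed positive under the settings run. Its call was lost with all genes above 0 tested (limma adjusted p = 0.0644) and in the fit without VO RV replicate 2 and sham RV replicate 1 (0.0687). The call was also lost in the libraries without Y-linked transcripts and in both fits with a replicate block, given below. With 1 library left out in turn, Fbxo32 kept its call in 5 of 12 fits. Over all 27 fits its log2 value lay between 1.17 and 2.47. With 3 libraries a group, an adjusted p over the threshold does not show that a member was unchanged, and the shared spread lets each library bear on every comparison.

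The correlation of deviations between samples with the same number ran from −0.22 to 0.12 and was not above 0.1 in every pair, so the numbers were not taken to pair the samples. Whether they mark 1 rat is not given by the labels. Y-linked transcripts were read or absent alike in the LV and RV of each number, except in VO 3, where the RV held them and the LV did not. The LV and RV of VO 3 thus came from different rats, and a block by number joins them. With the replicate number as a replicate block, 0 members and 0 genes of the lists were called in the difference of the responses, 0 list genes in sham hearts and 0 list genes for VO in the LV. That fit called 1, 3 and 3 of all 13910 genes there, against 583, 537 and 13 in the reported fit. The block within each treatment also gave 0 members and 0 list genes in the difference and 0 list genes in sham hearts. It called 0 of all genes in both. The adjusted p of Fbxo32 was 0.0707 and 0.146 in these fits. Not every sample correlated best with its own number.

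Numbers of members called moved as follows. In sham hearts (0) voom gave 1. For VO in the LV (0) the fit of only the groups compared gave 2, the atrial covariate 2 and voom 1. In the difference (1) the atrial covariate gave 3 and voom 2, and all genes above 0, the fit without VO RV replicate 2 and sham RV replicate 1, and the libraries without Y-linked transcripts gave 0. List genes in sham hearts (11) numbered 4 with only the groups compared, 4 with the atrial covariate, and 0 with all genes above 0, without the 2 libraries with atrial transcripts, and in the libraries without Y-linked transcripts. List genes for VO in the LV (1) numbered 0 with a pseudocount of 1, 4 with 0.1, 7 with a mean FPKM of at least 1, 3 with only the groups compared, 8 with the atrial covariate and 7 with voom. They numbered 0 with all genes above 0, the length trend removed, the Y-linked covariate, without the 2 libraries with atrial transcripts and in the libraries without Y-linked transcripts. List genes in the difference (15) numbered 4 with the Y-linked covariate, 23 with the atrial covariate, and 0 with all genes above 0, without the 2 libraries with atrial transcripts and in the libraries without Y-linked transcripts. All-gene calls moved in the same fits. In sham hearts (537 in the reported fit) they numbered 312 with only the groups compared, 344 with the atrial covariate and 683 with voom. They numbered 8 there with all genes above 0 and 7 without the 2 libraries with atrial transcripts. In the LV (13 in the reported fit) they numbered 120 with only the groups compared, 324 with the atrial covariate and 341 with voom. In the difference (583) they numbered 176 with the Y-linked covariate, 1213 with the atrial covariate, 802 with voom and 2 without the 2 libraries with atrial transcripts. The cause was not tested.

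With 1 library left out in turn, members called ranged from 0 to 3 in sham hearts, 0 to 2 for VO in the LV, 0 to 0 for VO in the RV and for VO LV against VO RV, and 0 to 3 in the difference. List genes called ranged from 0 to 19, 0 to 16, 0 to 0, 0 to 3 and 0 to 25, where all genes called ranged from 0 to 872, 0 to 554, 0 to 1, 1 to 48 and 0 to 1004. The highest counts came without VO RV replicate 3 (sham hearts, VO in the LV) or VO RV replicate 1 (VO LV against VO RV, difference), and 0 list genes were called in the difference without sham LV 1 or 2, sham RV 1 or 2, or VO LV 2 or 3.

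Signs turned only for values that were not called in the reported fit. For sham LV against sham RV, Trim63 was −0.057 with quantile normalization, −0.0013 with only the groups compared, −0.013 with the length trend removed, −0.052 with the atrial covariate and −0.0085 without the 2 libraries with atrial transcripts. For VO in the RV without these 2 libraries Trim63 was 0.046. For VO LV against VO RV, Trim55 was −0.0067 with the atrial covariate and −0.0071 without the 2 libraries, and in the difference without them Gadd45a was −0.026. In the libraries without Y-linked transcripts, the turned values in sham hearts were 0.13 (Foxo1), −0.040 (Trim63), −0.27 (Trim54) and 0.068 (Bnip3), in the RV 0.036 (Foxo1), 0.27 (Foxo3), −0.12 (Trim54) and 0.11 (Bnip3), for VO LV against VO RV −0.12 (Sesn1), and in the difference 0.12 (Trim54) and −0.061 (Bnip3). With 1 library left out in turn, the members' values that crossed 0 ranged in sham hearts from −0.0084 to 0.012 (Trim63) and −0.036 to 0.19 (Trim54). They ranged in the RV from −0.57 to 0.016 (Foxo3), −0.23 to 0.053 (Trim63), −0.0099 to 0.11 (Trim54) and −0.16 to 0.13 (Bnip3). For VO LV against VO RV they ranged from −0.021 to 0.15 (Trim55) and −0.12 to 0.31 (Sesn1), and in the difference from −0.012 to 0.34 (Gadd45a). Of the named list genes, Foxo6 (−0.19 to 0.21), Irs1 (−0.076 to 0.25) and Irs2 (−0.058 to 0.34) crossed 0 for VO LV against VO RV. Over all settings, for the members in every comparison and the list genes in the comparisons that named them, values called in the reported fit kept their call in 273 cases and lost it in 308. Values not called there stayed so with the same sign in 1244 cases and gained a call in 18.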

Other observations

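Bnip3 was lower in most libraries with Y-linked transcripts. The 5 libraries with these transcripts had 40.8, 34.8, 49.4, 43.1 and 34.8 FPKM, and the 7 without had 46.9 to 53.4 FPKM. Only sham RV replicate 1, with 49.4 FPKM, reached the range of the latter, and in sham RV the library without them (46.9 FPKM) lay between those with them. VO LV held no library with these transcripts and VO RV held 1. This split was seen in the data and was not tested.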
